A study of Mus musculus with 12 samples.

Results

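The vessels of the cortex were read here through 10 genes of brain endothelial cells and of the blood-brain barrier, in mice that lack 1 or both copies of the microRNA gene Mir137. The genes were chosen by name and are Cldn5, Slco1c1, Slc2a1, Abcb1a, Pecam1, Flt1, Kdr, Tek, Mfsd2a and Ly6c1, 10 of the 23951 rows in each deposited table. Cortex of C57BL/6 mice was sequenced as whole tissue from 3 genotypes: homozygous knockouts labelled miR-137 KO (KO), heterozygotes labelled miR-137/+ (Het) and wild types (WT). Each genotype had 4 libraries, 12 in all. The labels name no treatment, and the sources used here give neither the animals' age and sex nor how the mutant allele was made.

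Endothelial cells line the capillaries of the brain and are joined by tight junctions, so that most solutes cross only through transporters in their membranes. Glucose, thyroid hormone and lipids are carried inward, and efflux pumps return drugs and other foreign compounds to the blood. Receptors for VEGF (vascular endothelial growth factor) and for angiopoietins on the same cells govern vessel growth and stability, and Wnt signals from neural cells maintain the barrier state. MicroRNAs such as miR-137 pair through their seed, bases 2 to 8, with sites in the 3' UTR of messenger RNAs and lower their level or translation.

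The mature miR-137-3p, which the mutants are meant to lack, is shown first because its seed, in capitals, defines the sites searched for. The stretch of the Flt1 3' UTR below it holds the match found among the 10 genes, with the letters pairing with the seed and the A that follows them in capitals.
mmu-miR-137-3p: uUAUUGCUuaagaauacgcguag
Flt1 3' UTR site: tgggggaagccAGCAATAAtgaccaaaat
The microRNA is from RefSeq (GRCm38.p6, chr3:118433901-118433923, plus strand). The Flt1 match starts at base 1253 of its longest annotated 3' UTR of 3971 nt in GENCODE M21. The words searched were AGCAATA, which pairs with seed bases 2 to 8, and GCAATAA, which pairs with bases 2 to 7 and ends in A. Flt1, the decoy-like VEGF receptor, was the 1 gene with a match among the 10, all of which had an annotated 3' UTR. Of 12463 expressed genes with an annotated 3' UTR, 16.1% held a match. The other 9 genes had 3' UTRs of 389 to 1596 nt, where the median over expressed genes was 1237 nt. A match is a description of letters, and its absence says only that these words are not in that annotated stretch.

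Promoters from RefSeq (GRCm38.p6, windows of 300 bases around the start, most of them upstream) were held for 9 of the 10 genes, all but Pecam1. The 4 below belong to the 2 genes with the largest rise and fall in KO cortex, Cldn5 and Ly6c1, and to the 2 VEGF receptors, Flt1 and Kdr. Capitals mark every match, on either strand, to 7 words. They are CCGGAAG as a longer word of ETS factors and AGGAAG as a shorter one, ACAAAG as a first word of SOX factors and ACAATG as another, CTTTGAT for the Wnt-responsive TCF/LEF factors, GGGCGG for the GC box and TATAAA for the TATA box. Matches were counted also where they overlap.
Cldn5 promoter, chr16:18776597-18776896, plus strand: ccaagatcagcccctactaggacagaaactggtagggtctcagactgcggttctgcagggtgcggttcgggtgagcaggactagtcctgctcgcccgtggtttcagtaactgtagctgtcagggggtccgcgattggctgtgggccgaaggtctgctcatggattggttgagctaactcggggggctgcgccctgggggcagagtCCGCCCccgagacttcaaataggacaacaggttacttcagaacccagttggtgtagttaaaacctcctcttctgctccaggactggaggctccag
Ly6c1 promoter, chr15:75048788-75049087, minus strand: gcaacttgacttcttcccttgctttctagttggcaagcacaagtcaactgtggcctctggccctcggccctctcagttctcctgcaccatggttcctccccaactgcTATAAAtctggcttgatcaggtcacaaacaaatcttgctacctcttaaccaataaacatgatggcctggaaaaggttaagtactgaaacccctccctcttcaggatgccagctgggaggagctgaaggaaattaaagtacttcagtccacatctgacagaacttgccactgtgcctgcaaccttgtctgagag
Flt1 promoter, chr5:147725962-147726261, minus strand: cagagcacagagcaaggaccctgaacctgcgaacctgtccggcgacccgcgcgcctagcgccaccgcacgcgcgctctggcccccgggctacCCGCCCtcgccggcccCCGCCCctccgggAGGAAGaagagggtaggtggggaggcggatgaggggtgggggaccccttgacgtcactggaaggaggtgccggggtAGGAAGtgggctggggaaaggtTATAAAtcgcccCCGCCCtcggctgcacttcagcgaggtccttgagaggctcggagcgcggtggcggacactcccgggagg
Kdr promoter, chr5:75978406-75978705, minus strand: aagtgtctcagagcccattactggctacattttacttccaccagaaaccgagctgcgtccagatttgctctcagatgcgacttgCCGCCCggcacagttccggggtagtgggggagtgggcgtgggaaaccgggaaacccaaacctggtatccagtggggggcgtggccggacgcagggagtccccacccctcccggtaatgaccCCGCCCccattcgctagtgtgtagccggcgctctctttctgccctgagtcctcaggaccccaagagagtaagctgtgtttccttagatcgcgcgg
The Flt1 promoter, at 70.7% GC with 29 CpG, held ETS, GC box and TATA box words. The Kdr promoter, at 60.7% GC with 19 CpG, held GC box words alone. The Cldn5 promoter held a single GC box word at 58.3% GC, and the Ly6c1 window shown held the word TATAAA at 49.0% GC with 1 CpG. Words were counted anywhere in a window, so a match does not place a working TATA or GC box. The median over 32851 promoters was 52.7% GC with 7 CpG. Counting a second Ly6c1 window that overlaps the one shown, AGGAAG occurred in 4 of the 9 genes and in 35.4% of all promoters, ACAAAG in 4 and 18.7%, GGGCGG in 4 and 35.7%, and TATAAA in 4 and 13.6%. The longer ETS word, the other SOX word and the TCF/LEF word occurred in 0 of the 9, against 8.86%, 12.6% and 3.73% of all promoters.

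All values are the authors' RPKM, reads scaled to transcript length and to library size, with the libraries of a genotype pooled into 1 value, so no SD can be given and the depth is unknown. KO and WT values are from the KO and WT table, Het values from the Het and WT table, unless the KO and Het pair is compared. Rises and falls are named only for genes that the authors' deposited table gives an adjusted p under 0.05. The smallest p of the authors' test was 5e-05 in every comparison. It gives the smallest adjusted p, 0.000987 in KO against WT and 0.00135 in Het against WT. Genes at these values cannot be ranked by them, within a comparison or between the 2. The titles number the 4 libraries of each genotype 1-1, 1-2, 2-1 and 2-2, and the labels speak of duplicated samples, but nothing says which numbers mark separate animals or repeat libraries. The p-values measure how these libraries vary, which may be technical variation alone, and repeat libraries of an animal would make them too small. Mir137 itself was listed at 0 in all 3 genotypes, so this row checks no label. The labelled tissue carried its markers, with all 9 cortical excitatory neuron markers at 1 RPKM or more. They summed to 2017 RPKM in KO, 2107 in Het and 2252 in WT. Of them, 1 was higher and 1 lower in KO, and 2 higher and 1 lower in Het. The lower 1 in KO was Slc17a7, at 393 RPKM against 575 in WT (adjusted p 0.000987 by the authors' deposited table). Markers of other tissue were not matched between the genotypes. Striatal neuron markers summed to 474, 461 and 56.5 RPKM in KO, Het and WT, and choroid plexus markers to 90.9, 295 and 2082 RPKM. Endothelial cells were present by Cdh5, the endothelial cadherin, at 4.22, 4.60 and 5.30 RPKM in KO, Het and WT. They were present also by Tie1, an endothelial receptor kinase, at 4.98, 4.52 and 3.91 RPKM. Neither gene was called in any comparison. In KO against WT both had an unadjusted p below 0.05 by the authors' test, with Cdh5 lower (0.03505) and Tie1 higher (0.0274). In whole tissue, fewer endothelial cells and less RNA per cell cannot be told apart.

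The 10 genes fell into a high and a low group by level. In WT cortex Slc2a1 stood highest at 58.1 RPKM, followed by Cldn5, Slco1c1, Ly6c1 and Mfsd2a between 29.98 and 32.4 RPKM. Pecam1 followed at 7.38 RPKM, and Flt1, Abcb1a, Kdr and Tek lay between 2.48 and 4.50 RPKM. In KO Cldn5 had the highest value at 48.2 RPKM, with Slco1c1 and Slc2a1 at 40.8 and 39.9. In Het Cldn5, Slco1c1 and Slc2a1 lay together at 39.5, 38.7 and 38.4 RPKM. Since pooled values have no spread, none of these neighbours can be ranked beyond replicate error. The summed level of the 10 genes was 200 RPKM in KO, 188 in Het and 206 in WT, so that the sum moved less than several of its parts.

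**Figure D1:**
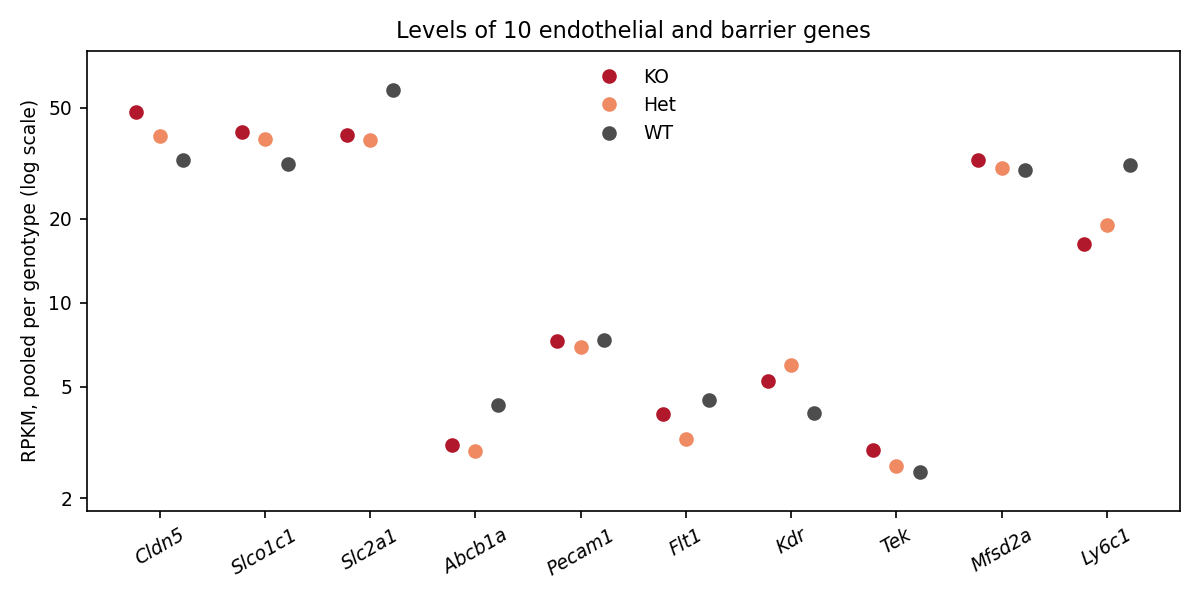
Level of each of the 10 genes (x axis) in RPKM on a log scale (y axis); points are the authors' pooled value for KO, Het and WT, 1 per genotype. WT lies above KO and Het for Slc2a1, Abcb1a, Flt1 and Ly6c1 and below them for Cldn5, Slco1c1, Kdr, Tek and Mfsd2a. Pecam1 lies within 6.94 to 7.38 RPKM.

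Solute transporters of the barrier moved in different directions. Slc2a1 encodes GLUT1, the glucose transporter of brain endothelium, which astrocytes also make. It had 39.9 RPKM in KO, 38.4 in Het and 58.1 in WT. Both mutant values lay well under the WT value and close to each other. Slc2a1 fell 1.46-fold in KO (log2 fold -0.53, adjusted p 0.000987 by the authors' deposited table) and 1.51-fold in Het (log2 fold -0.58, adjusted p 0.00135 by the authors' deposited table). Slco1c1 encodes OATP1C1, which carries thyroxine and is also found in astrocytes. It had 40.8 RPKM in KO, 38.7 in Het and 31.5 in WT. It rose 1.30-fold in KO (log2 fold 0.37, adjusted p 0.0221 by the authors' deposited table). In Het its ratio to WT was 1.23, which was not called (adjusted p 0.0804 by the authors' deposited table). Mfsd2a encodes the transporter of lysophosphatidylcholine that brings the omega-3 fatty acid DHA into the brain and restrains transcytosis. It had 32.4 RPKM in KO, 30.5 in Het and 29.98 in WT, a narrow range that was not called (adjusted p 0.627 for KO and 0.959 for Het by the authors' deposited table).

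Abcb1a encodes P-glycoprotein, the efflux pump that keeps many drugs out of the brain. It had 3.09 RPKM in KO, 2.95 in Het and 4.31 in WT. As with Slc2a1, the 2 mutant values lay together under the WT value. It fell 1.39-fold in KO (log2 fold -0.38, adjusted p 0.0240 by the authors' deposited table) and 1.46-fold in Het (log2 fold -0.43, adjusted p 0.0107 by the authors' deposited table). Its paralog Abcb1b, similar enough that reads could be split between them, had 0.760, 0.910 and 0.929 RPKM in KO, Het and WT.

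The junction gene Cldn5 changed in KO, and the adhesion gene Pecam1 was not called in either mutant. Cldn5 encodes claudin-5, the main sealing protein of brain endothelial tight junctions. It had 48.2 RPKM in KO, 39.5 in Het and 32.4 in WT, with Het between the other 2 genotypes. It rose 1.49-fold in KO (log2 fold 0.56, adjusted p 0.00179 by the authors' deposited table), the largest rise among the 10 genes. In Het the ratio was 1.22, which was not called (adjusted p 0.154 by the authors' deposited table). Pecam1, the adhesion molecule CD31 of endothelial contacts, had 7.31 RPKM in KO, 6.94 in Het and 7.38 in WT. Its ratios to WT of 0.992 in KO and 0.942 in Het were not called (adjusted p 0.977 and 0.860 by the authors' deposited table). The ratio of Cldn5 to Pecam1 was 6.59 in KO, 5.69 in Het and 4.39 in WT, and that of Slc2a1 to Cldn5 was 0.828, 0.973 and 1.79. These ratios carry no test.

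Among receptors for growth factors, the 2 VEGF receptors parted in Het cortex. Kdr encodes VEGFR2, the main signalling receptor for VEGF-A. It had 5.27 RPKM in KO, 5.98 in Het and 4.03 in WT. It rose 1.49-fold in Het (log2 fold 0.47, adjusted p 0.00135 by the authors' deposited table). In KO the ratio was 1.31, which missed the threshold (adjusted p 0.0536 by the authors' deposited table). Flt1 encodes VEGFR1, which binds VEGF-A tightly, signals weakly and has a soluble form. It had 3.997 RPKM in KO, 3.25 in Het and 4.50 in WT. It fell 1.38-fold in Het (log2 fold -0.37, adjusted p 0.0218 by the authors' deposited table), while the KO ratio of 0.889 was not called (adjusted p 0.483 by the authors' deposited table). The seed match of Flt1 lay in its longest annotated 3' UTR and not in its shortest. Any part of the match in these values was not tested. The ratio of Kdr to Flt1 was 1.32 in KO, 1.84 in Het and 0.896 in WT. This ratio carries no test, and neither receptor was called in KO. Tek encodes TIE2, the angiopoietin receptor, and was the lowest of the 10 genes at 2.97 RPKM in KO, 2.60 in Het and 2.48 in WT. It was not called (adjusted p 0.329 for KO and 0.920 for Het by the authors' deposited table).

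Ly6c1 encodes a membrane-anchored antigen that is abundant on brain microvessel endothelium. It had 16.3 RPKM in KO, 19.0 in Het and 31.3 in WT. It had the largest fall of the 10 genes in each mutant. It fell 1.92-fold in KO (log2 fold -0.90, adjusted p 0.000987 by the authors' deposited table) and 1.64-fold in Het (log2 fold -0.69, adjusted p 0.00135 by the authors' deposited table). Ly6c2, a near-identical paralog of monocytes with which reads could be shared, was listed at 0.0241, 0.0361 and 0.401 RPKM in KO, Het and WT. The measured genes of the neutrophil and leukocyte list moved the same way as Ly6c1. Of 5 measured, 4 fell in KO and 3 in Het, and the summed level of the list was 6.14 RPKM in KO, 1.85 in Het and 159 in WT, with Ngp at 0 in Het. Much of the WT sum came from Lcn2 and S100a8, at 91.7 and 32.7 RPKM. Neither of them was called in Het (adjusted p 0.161 and 0.194 by the authors' deposited table). Ngp was not called in KO (adjusted p 0.269 by the authors' deposited table), and the neutrophil genes Camp and Ltf were untested. The part of the neutrophil and leukocyte markers in the Ly6c1 result was not tested.

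In all, 5 of the 10 genes changed in KO against WT, 2 higher and 3 lower, where 14.6% of 13532 genes tested at 1 RPKM or more were called, 6.88% higher and 7.72% lower. In Het against WT 5 changed, 1 higher and 4 lower, where 9.13% of 13561 genes were called, 4% higher and 5.13% lower. The share of the 10 genes called lay above the background in both of these comparisons, but the genes are 10 and were picked with earlier results in view. By the authors' test an unadjusted p below 0.05 was reached by 6 genes in KO and 7 in Het. How many of all genes reached it was not counted, so these 2 counts have no background. Among all genes tested, the log2 fold of Cldn5 in KO stood at percentile 97.4, that of Slco1c1 at 91.6, and those of Abcb1a, Slc2a1 and Ly6c1 at 7.85, 3.87 and 1.26. In Het, Kdr stood at percentile 96.8, and Flt1, Abcb1a, Slc2a1 and Ly6c1 at 6.20, 4.88, 2.57 and 1.94. Their median log2 fold was 0.05 in KO and -0.03 in Het, beside 0.01 and 0.01 over all genes tested. The median size of the difference, regardless of sign, was 0.34 and 0.33, beside 0.16 and 0.13 over all genes. The 2 comparisons share the WT libraries, so their likeness is not independent evidence.

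KO against Het gave no called difference for any of the 10 genes, where 1.92% of 13424 genes were called, 0.939% higher and 0.983% lower. By the authors' test 1 gene had an unadjusted p below 0.05. That was Cldn5, at 48.4 RPKM in KO and 39.7 in Het (unadjusted p 0.0386, adjusted p 0.460 by the authors' deposited table). Flt1 had 4.02 RPKM in KO and 3.27 in Het (adjusted p 0.532 by the authors' deposited table), and Kdr 5.29 and 6.02 RPKM (adjusted p 0.792 by the authors' deposited table). The calls of Cldn5 and Slco1c1 in KO alone, and of Kdr and Flt1 in Het alone, are therefore not shown to differ between the mutants.

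**Figure D2:**
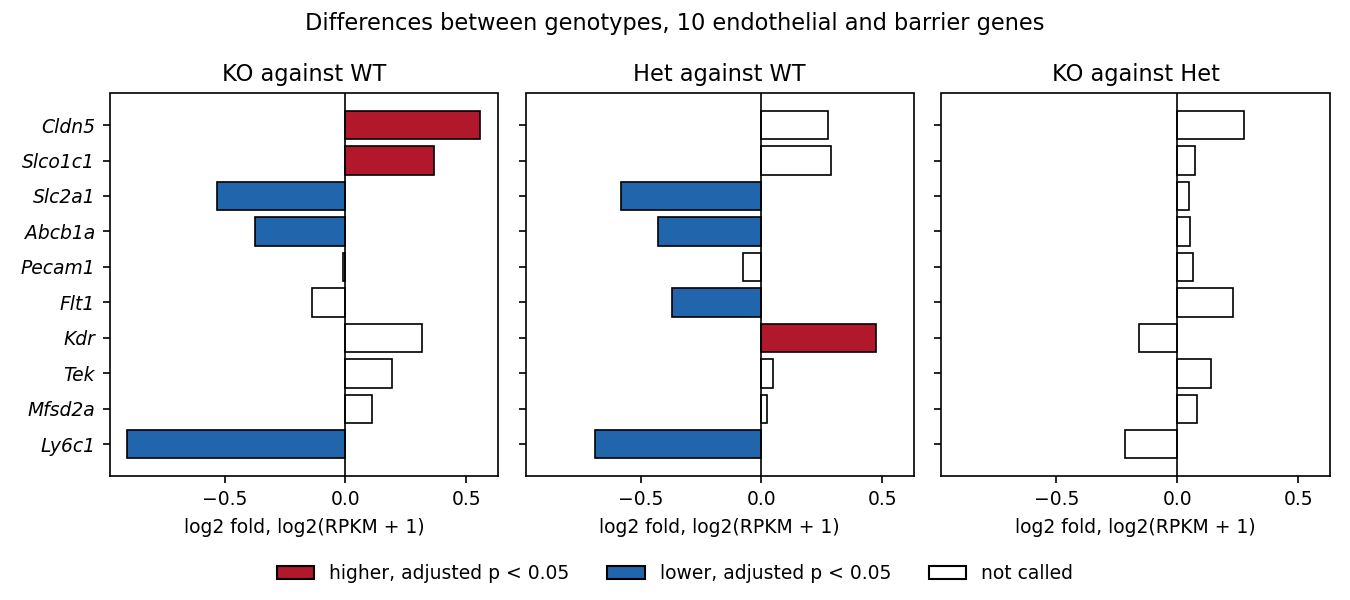
Log2 fold of each of the 10 genes (y axis) as the difference of log2(RPKM + 1) (x axis) for KO against WT, Het against WT and KO against Het; filled bars have an adjusted p below 0.05 in the authors' table, red higher and blue lower, and open bars were not called. Slc2a1, Abcb1a and Ly6c1 are blue in the first 2 panels, and no bar is filled in the third.

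Genes of vessels and of the barrier were read in 9 wider lists, which held 122 measured genes beside the 10. Some of them are also made by neurons or astrocytes, so the lists do not stand for endothelium alone. Of the 122 genes, 10 rose and 14 fell in KO (19.7%), and 11 rose and 14 fell in Het (20.5%). These shares lay above the 14.6% and 9.13% of all genes tested that were called. The counts of each list below are to be read beside the same 14.6% in KO and 9.13% in Het. Their median log2 fold was 0.02 in KO and -0.0049 in Het. The lists were chosen with earlier results of these data known, and no test of a list was run.

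Transporters other than the 10 genes had 0 higher and 3 lower of 17 in KO, and 2 higher and 3 lower in Het. Slco1a4, an organic anion transporter of brain endothelium, had 5.77 RPKM in KO and 5.47 in Het, against 10.3 in WT (adjusted p 0.000987 and 0.00135 by the authors' deposited table). The transferrin receptor Tfrc, which carries iron across the barrier and is also made by neurons, had 24.6 RPKM in KO and 26.8 in Het, against 34.1 in WT (adjusted p 0.00179 and 0.0246 by the authors' deposited table). The efflux pump Abcc4 had 1.78 RPKM in KO and 1.69 in Het, against 2.76 in WT (adjusted p 0.00179 and 0.00434 by the authors' deposited table). Slco1a4 thus fell where the related Slco1c1 did not, and the ratio of Slco1c1 to Slco1a4 was 7.08 in KO, 7.07 in Het and 3.07 in WT. The glutamine transporter Slc38a3, also of astrocytes, rose in Het to 57.3 RPKM, against 39.2 in WT (adjusted p 0.00135 by the authors' deposited table). The monocarboxylate transporter Slc16a1 rose in Het to 25.4 RPKM, against 19.96 in WT (adjusted p 0.0335 by the authors' deposited table).

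Of 9 junction genes, 1 fell in KO, and 1 rose and 1 fell in Het, beside 14.6% and 9.13% of all genes tested. Occludin (Ocln), a strand protein of tight junctions, fell in KO to 3.55 RPKM, against 4.94 in WT (adjusted p 0.0393 by the authors' deposited table), so it moved opposite to Cldn5. In Het Cldn12 rose to 13.4 RPKM, against 9.64 in WT (adjusted p 0.00244 by the authors' deposited table). The junctional protein gene Cgnl1 fell in Het to 1.76 RPKM, against 2.60 in WT (adjusted p 0.0141 by the authors' deposited table).

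The ligands of Kdr, Flt1 and Tek were not called. Vegfa had 17.996 RPKM in KO, 18.3 in Het and 19.5 in WT, and Angpt1, the activating ligand of TIE2, had 3.25, 3.23 and 3.16 RPKM. Of 9 measured ligands 1 rose in each mutant. This was apelin (Apln), a peptide of sprouting endothelium that neurons also make, at 10.7 RPKM in KO and 12.3 in Het, against 5.92 in WT (adjusted p 0.000987 and 0.00135 by the authors' deposited table). Its receptor Aplnr had 2.72 RPKM in KO and 2.83 in Het, against 0.861 in WT (adjusted p 0.000987 and 0.00135 by the authors' deposited table). Among 9 other angiogenic receptors, 2 rose and 1 fell in each mutant. The semaphorin receptor Plxnd1, present in endothelium and in striatal neurons, had 18.1 RPKM in KO and 14.3 in Het, against 10.1 in WT (adjusted p 0.000987 and 0.00135 by the authors' deposited table). The guidance receptor Robo4, largely endothelial, had 3.65 RPKM in KO and 3.40 in Het, against 5.01 in WT (adjusted p 0.0379 and 0.0141 by the authors' deposited table). All 9 measured striatal neuron markers rose in each mutant, with summed levels of 474 RPKM in KO, 461 in Het and 56.5 in WT. Their part in the results for Plxnd1, Apln, Aplnr and the 10 genes was not tested.

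Of 18 measured Wnt and norrin pathway genes, 2 were higher and 2 lower in KO, and 2 higher and 1 lower in Het. Over all genes tested, 14.6% were called in KO and 9.13% in Het. Fzd4, the norrin receptor of brain endothelium, had 2.27 RPKM in KO and 2.01 in Het, against 3.64 in WT (adjusted p 0.00386 and 0.00343 by the authors' deposited table). Lef1, a transcription factor of the pathway, fell in KO to 1.602 RPKM, against 2.62 in WT (adjusted p 0.0188 by the authors' deposited table). The Wnt antagonists Apcdd1 and Nkd1 rose. Apcdd1 had 31.3 RPKM in KO and 31.3 in Het, against 24.1 in WT (adjusted p 0.0297 and 0.0213 by the authors' deposited table). Nkd1 had 4.21 RPKM in KO and 3.97 in Het, against 2.77 in WT (adjusted p 0.00560 and 0.0409 by the authors' deposited table). Axin2 of the same list was not called (adjusted p 0.733 in KO and 0.102 in Het by the authors' deposited table). Whether Wnt signalling was higher or lower in the mutants was not tested.

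Of 13 endothelial transcription factors, 2 rose and 1 fell in KO. By the authors' test 0 were called in Het, where 4 had an unadjusted p below 0.05. The flow-responsive factor Klf2 rose in KO to 8.20 RPKM, against 5.04 in WT (adjusted p 0.00616 by the authors' deposited table). Ets1 rose in KO to 4.45 RPKM, against 3.12 in WT, and Ets2 fell to 9.70 RPKM, against 13.2 in WT (adjusted p 0.0130 and 0.0126 by the authors' deposited table). Sox17, Erg and Fli1, which define endothelial identity, were not called.

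Of 10 arterial and venous genes, 1 rose and 1 fell in KO, and 2 fell in Het. Vwf, the von Willebrand factor of larger vessels, had 2.21 RPKM in KO and 1.45 in Het, against 4.81 in WT (adjusted p 0.000987 and 0.00135 by the authors' deposited table). It was also higher in KO than in Het, at 2.22 and 1.46 RPKM (adjusted p 0.0335 by the authors' deposited table). Nr2f2, the vein-specifying factor COUP-TFII, which interneurons also express, fell in Het to 3.83 RPKM, against 6.73 in WT (adjusted p 0.00135 by the authors' deposited table). It was higher in KO than in Het, at 6.00 and 3.86 RPKM (adjusted p 0.0123 by the authors' deposited table). The arterial connexin Gja4 rose in KO to 4.85 RPKM, against 3.04 in WT (adjusted p 0.0249 by the authors' deposited table).

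Icam1, the adhesion molecule that inflamed endothelium presents to leukocytes, had 2.38 RPKM in KO and 2.28 in Het, against 7.92 in WT (adjusted p 0.000987 and 0.00135 by the authors' deposited table). It made the 1 lower gene of 12 in its list in KO, beside 0 higher. In Het the same list had Icam1 lower and caveolin (Cav1) higher, at 16.3 RPKM, against 11.9 in WT (adjusted p 0.0121 by the authors' deposited table). The selectins Sele and Selp, also of inflamed endothelium, were untested at low levels. Sele had 0.0369 RPKM in KO, 0.0167 in Het and 0.536 in WT. Selp was listed at 0 in KO, with 0.00680 RPKM in Het and 0.525 in WT. Vcam1, another adhesion molecule, had 21.3 RPKM in KO, 20.5 in Het and 18.8 in WT and was not called, and Plvap, a protein of leaky fenestrated vessels, had 5.29, 5.13 and 4.43 RPKM and was not called. As for Ly6c1, the measured genes of the neutrophil and leukocyte list moved the same way as Icam1 and Vwf, and their part was not tested.

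Other endothelial genes numbered 2 higher and 4 lower of 25 in KO, and 2 higher and 5 lower in Het. Ly6a, an endothelial and leukocyte antigen (SCA-1), had 6.27 RPKM in KO and 6.11 in Het, against 17.3 in WT (adjusted p 0.000987 and 0.00135 by the authors' deposited table). The endothelial lectin Clec14a had 1.09 RPKM in KO and 1.03 in Het, against 1.86 in WT (adjusted p 0.00729 and 0.0135 by the authors' deposited table). Ly6e fell in KO to 59.4 RPKM, against 89.3 in WT (adjusted p 0.000987 by the authors' deposited table). Ctla2a had 23.7 RPKM in KO and 17.96 in Het, against 31.8 in WT (adjusted p 0.0233 and 0.00135 by the authors' deposited table). Cd93, an endothelial receptor, had 4.92 RPKM in KO and 4.63 in Het, against 3.35 in WT (adjusted p 0.00323 and 0.0171 by the authors' deposited table). The BMP target Id3 rose in Het to 56.8 RPKM, against 41.3 in WT (adjusted p 0.00928 by the authors' deposited table).

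**Figure D3:**
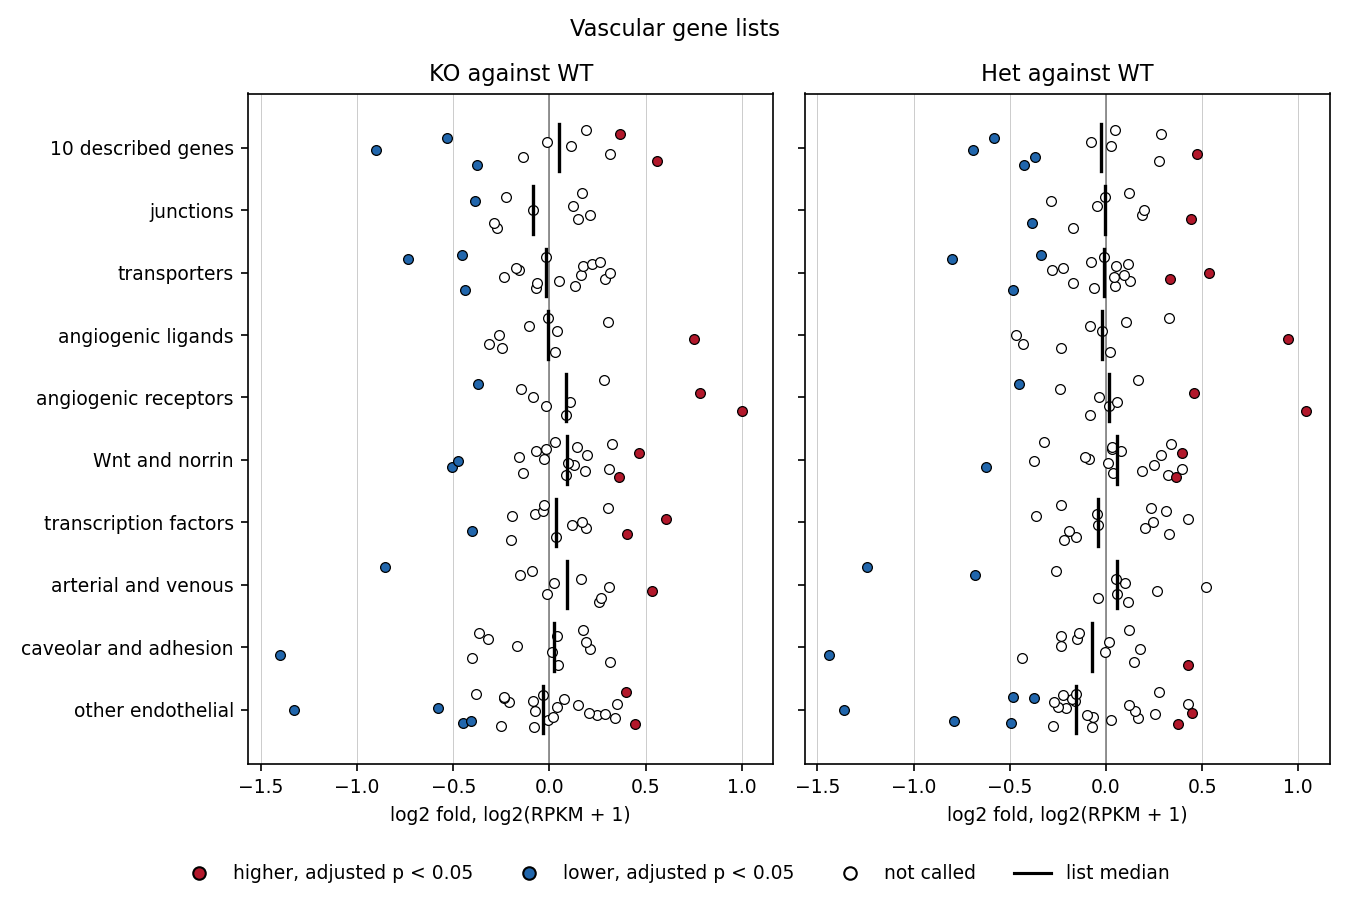
Log2 fold, the difference of log2(RPKM + 1), of each measured gene in the 10 described genes and 9 wider vascular lists, for KO against WT and Het against WT; red and blue points have an adjusted p below 0.05 in the authors' table, open points were not called and bars are list medians. Medians of the 9 wider lists lie between -0.16 and 0.09, while Icam1 and Ly6a lie farthest left and Aplnr farthest right.

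The 3 vascular genes whose pair of folds over 3 genotypes lay nearest to the median pair of the 10 genes, among 72 candidates of at least 5 RPKM in any genotype, were Egfl7, Slco2b1 and Cxcl12. Their distances on the log2 scale were 0.05, 0.07 and 0.08. With 3 pooled values per gene, many genes that hardly moved lie as close.

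Markers of cells that share the vessel wall or the tissue were read beside the 10 genes. The shares called among all genes tested were 14.6% in KO and 9.13% in Het. Of 11 measured pericyte and smooth muscle markers, 3 rose in KO and 1 in Het, and none fell, with a median log2 fold of 0.12 and 0.15. Pdgfrb, the receptor that recruits pericytes to endothelium, rose in KO to 6.58 RPKM, against 4.82 in WT (adjusted p 0.0150 by the authors' deposited table). The list summed to 110 RPKM in KO, 118 in Het and 100 in WT. Astrocyte markers, relevant to Slc2a1 and Slco1c1, had 0 of 10 called in KO, with 2 at an unadjusted p below 0.05 by the authors' test, and 1 higher and 1 lower in Het, with sums of 997, 1010 and 1050 RPKM. The water channel Aqp4 of astrocyte endfeet, which wrap the capillaries, rose in Het to 67.8 RPKM, against 47.2 in WT (adjusted p 0.00135 by the authors' deposited table). Fgfr3 fell in Het to 26.4 RPKM, against 35.6 in WT (adjusted p 0.00434 by the authors' deposited table). Aqp4 was lower in KO than in Het, at 48.4 and 68.2 RPKM (adjusted p 0.0184 by the authors' deposited table).

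Choroid plexus markers fell in 9 of 10 members in each mutant, with sums of 90.9 RPKM in KO, 295 in Het and 2082 in WT, and Slc2a1 is also made by choroid plexus epithelium. Meningeal fibroblast markers fell in 3 of 11 in KO and 6 of 11 in Het, with sums of 103, 86.3 and 134 RPKM. Microglia markers had 3 higher and 4 lower of 10 in each mutant, with sums of 315, 330 and 419 RPKM. Erythroid markers had 0 of 3 called in KO, with 1 at an unadjusted p below 0.05 by the authors' test, and 2 higher in Het, with sums of 36.3, 88.0 and 31.5 RPKM. Glucocorticoid-responsive genes had 1 higher and 8 lower of 13 in each mutant. The part of these lists in the results for the 10 genes was not tested.

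**Figure D4:**
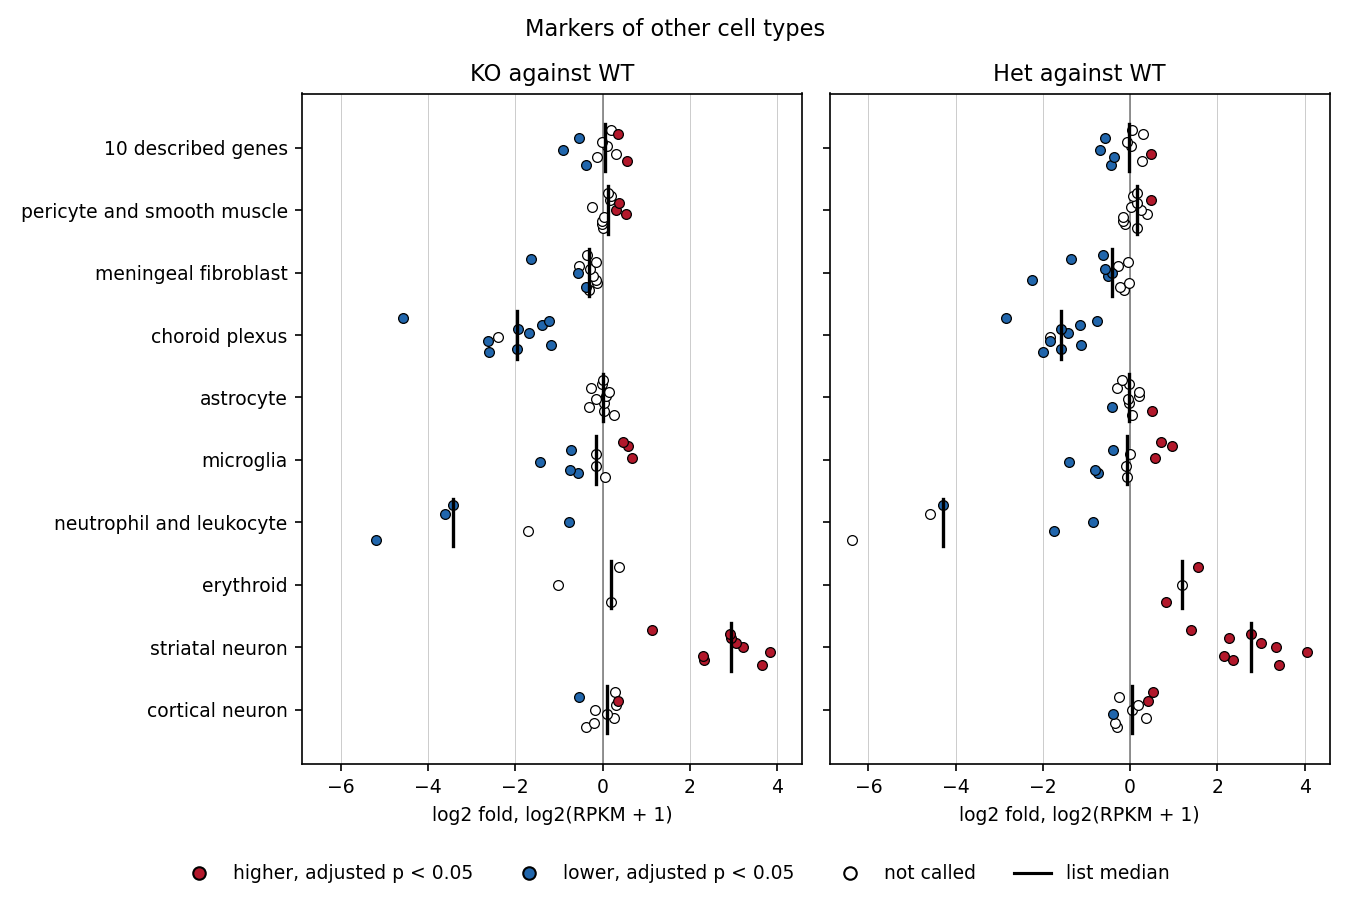
Log2 fold, the difference of log2(RPKM + 1), of each measured gene in the 10 described genes and in marker lists of other cell types, for KO against WT and Het against WT; colours and bars as for the vascular lists, and erythroid genes number 3. All striatal markers lie farther right, and all choroid plexus markers farther left, than any of the 10 genes, and pericyte and astrocyte medians lie near 0.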

How the data were processed

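Whole cortex was profiled by paired-end RNA sequencing with TruSeq libraries, per the labels' protocols. Cuffdiff 2.2.1, TopHat2 2.0.13 and CASAVA 1.4 are listed with mm9 in the submitters' processing notes, without their roles or the annotation. The authors deposited 3 pairwise tables with RPKM per genotype, per the file headers, which pool its libraries. The same deposited tables hold the authors' p-value and adjusted p-value per gene. Genes with a p of 1 were taken as untested, since the adjusted values equal a Benjamini-Hochberg adjustment over the other genes. Titles gave each library's genotype, and 0 value columns lacked a genotype. Of the 23951 rows, 27 carry names turned into dates.

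Single values per genotype have no spread, so no further test was made. Among 883 genes under 0.05 RPKM in both KO and WT, 26 shared the commonest ratio. Pooled libraries and no stated lengths leave whole reads unresolved, and depth is unknown. Calls are the authors' adjusted p below 0.05. Folds on the log2 scale subtract log2(RPKM + 1) values, which understates changes of low genes, and a gene is measured at 1 RPKM in either genotype. The same genotype's RPKM for the 10 genes differed between tables by at most 0.681%. Named genes are the 10 genes, Cdh5 and Tie1, up to 4 called genes per list and comparison by smallest adjusted p, and the 3 nearest in pattern. Ctla2a in KO, Cd93 in Het, Slc16a1, Vegfa, Angpt1, Sele, Selp, Vcam1, Plvap, Sox17, Erg, Fli1, the paralogs and the observations were added after their values were seen. So were Axin2, Camp, Ltf and the KO result of Ngp. The members and lists were chosen with earlier results of these data known. 3' UTRs came from GENCODE M21 (GRCm38), whose build differs from that of the tables, and covered 90.2% of expressed genes. The fold and Benjamini-Hochberg steps were tried on simulated replicate libraries, which does not test the authors' calls. Scripts ran in Python 3.11.15 with pandas 2.3.3, numpy 2.4.6 and scipy 1.17.1, and figures in matplotlib 3.10.9.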

Additional observations from a re-analysis of the deposited data

How the results depend on the processing

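The limits are those of pooled values: a single library that sets a value cannot be seen. No paired analysis was possible because the tables hold 1 value per genotype, and leaving out a library could not be run for the same reason, nor could count-based normalizations. The 30 log2 folds of the 10 genes kept their sign with pseudocounts of 0.1 and 0.01, after recentring on the median of all genes and with values from the other 2 tables. Calls of the 10 genes were 5 in KO and 5 in Het also with no minimum RPKM, since all 10 exceed 1 RPKM, and with adjustment over the 3 tables together. With an adjusted p below 0.01 they numbered 3 in KO (Cldn5, Slc2a1 and Ly6c1) and 3 in Het (Slc2a1, Kdr and Ly6c1). With an absolute log2 fold of at least 0.5 they numbered 3 in KO and 2 in Het, and at 5 RPKM or more 4 in KO (Abcb1a drops out) and 3 in Het (Abcb1a and Flt1 drop out). The wider vascular genes numbered 24 called in KO, 25 in Het and 2 in KO against Het. An adjusted p below 0.01 left 15, 14 and 0, a log2 fold of at least 0.5 left 11, 10 and 1, and 5 RPKM left 13, 17 and 1. Fewer genes pass these by construction. With the shortest annotated 3' UTRs 0 of the 10 genes held a seed match, since the Flt1 match lies in the longer form, and 9.21% of expressed genes did.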

Other observations

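Relatives of Cldn5 and Ly6c1 were read by symbol, a choice made after seeing the data and carrying no test of the family. Beside both families stand the 14.6% in KO and 9.13% in Het called among all genes tested. Of 12 measured claudin genes, 1 rose and 2 fell in KO, and 2 rose and 2 fell in Het. Cldn5 was the 1 that rose in KO. Cldn2, a claudin of choroid plexus epithelium, had 0.376 RPKM in KO and 0.855 in Het, against 4.23 in WT (adjusted p 0.000987 and 0.00135 by the authors' deposited table). Cldn1 had 1.94 RPKM in KO and 1.82 in Het, against 5.23 in WT (adjusted p 0.000987 and 0.00135 by the authors' deposited table). Cldn11, the claudin of myelin, had 33.0 RPKM in KO, 51.6 in Het and 40.5 in WT and was not called against WT. Cldn10 and Cldn25 had 32.1 and 33.1 RPKM in KO, 33.2 and 36.5 in Het, and 31.8 and 33.4 in WT, as abundant as Cldn5 in WT, and were not called.

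Of 9 Ly6 genes on chromosome 15, 4 were measured. Ly6a, Ly6c1 and Ly6e fell in KO, and Ly6a and Ly6c1 in Het. Ly6h, a neuronal member of the family, had 282 RPKM in KO, 224 in Het and 260 in WT and was not called (adjusted p 0.608 and 0.286 by the authors' deposited table).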
